A study of Mus musculus and Homo sapiens with 14 samples.

Results

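Unperturbed gene expression of human and mouse leukemia cells driven by MLL-AF9 was set side by side in 4 of the 14 RNA-seq libraries of the series: MOLM-13 carrying an empty vector (2 libraries) and RN2 (2 libraries, marked "empty" in their names), each kept 2 h in 0.1% DMSO, the solvent of the kinase inhibitor studied in the other libraries of these lines. Members of the comparison are the 15694 gene symbols that occur in both the human table (19166 rows) and the mouse table (20682 rows) when upper and lower case are ignored, after 11 matched symbols on a list of major histocompatibility and pseudoautosomal genes were left out. MOLM-13 is an established human acute myeloid leukemia line that carries the MLL-AF9 fusion and an internal duplication in the receptor FLT3. RN2 is a mouse leukemia line made by introducing MLL-AF9 together with mutant Nras. Both are single lines, so nothing here describes human or mouse leukemia in general. Line, species, gene models and library preparation coincide, and their parts in a difference cannot be told apart. A further pair of mouse libraries, RN2 expressing Cas9 and taken at day 2 after infection with a guide against the neutral Rosa26 locus (written RN2c below), served as a second sample of the mouse leukemia. The inhibitor, labelled YKL, was given for 2 h to the treated libraries, which are used below only as an alternative. RN2 received 350 nM of it, whereas MOLM-13 received the lower dose of 250 nM. In that alternative, dose therefore differs together with line. The labels do not state whether the paired libraries are separate cultures, and the p-values therefore reflect only how much these libraries vary.

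MLL (KMT2A) is a histone methyltransferase of the chromatin machinery that keeps developmental genes active. When a translocation joins its front part to AF9 (MLLT3), a subunit of the transcription elongation machinery, the fusion recruits DOT1L and elongation factors to its targets, and HOXA genes, MEIS1 and MEF2C stay on in myeloid progenitors that then fail to mature. Leukemias of this type usually look like arrested granulocyte-macrophage progenitors, with primary granule enzymes, few late granule proteins and a variable set of monocyte surface receptors.

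Levels are RPM, reads per 1000000 reads: the whole reads behind each deposited value, set against all recovered reads of the library. The libraries held 18456346 and 22609627 reads for MOLM-13 and 13961461 and 14560501 for RN2, so 1 read is worth 0.0442 to 0.0716 RPM. RPM is not corrected for gene length, so only the same gene is compared between the lines. In what follows a pair of values is library 1 and library 2 of a line, and a fold given for a gene is the ratio of mean RPM. A log2 difference is MOLM-13 minus RN2 on log2(RPM + 0.5) with its standard error from limma. Calls and counts of symbols at least 4-fold apart use this log2 difference, at 2 or more in size, and not the ratio of mean RPM. A symbol is called shared at 10 RPM or more in all 4 libraries, and found in 1 line at 10 RPM or more in both of its libraries and under 1 RPM in both of the other.

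Across all 15694 symbols the rank order of levels matched between MOLM-13 and RN2 with a Spearman rho of 0.832 to 0.837. Libraries of MOLM-13 gave 0.990 with each other, those of RN2 0.984, and RN2 with RN2c 0.979 to 0.984. Genes are not independent replicates, so these are descriptions, and many points are genes silent in both lines; over symbols with at least 1 RPM in any library the rho between the lines was 0.702 to 0.715. By level, 6953 symbols (44.3%) were shared, 377 (2.4%) were found in MOLM-13 alone, 341 (2.17%) in RN2 alone, 4960 (31.6%) were under 1 RPM in all 4 libraries and 3063 (19.5%) fell between these classes.

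The spread between libraries of a line was small beside the distance between the lines. Among symbols with a mean of at least 10 RPM, the median absolute log2 difference between libraries was 0.13 in MOLM-13 and 0.07 in RN2. Of 10215 symbols with a mean of at least 1 RPM, 8550 (83.7%) passed the limma test at an adjusted p of 0.05, 4183 (40.9%) higher in MOLM-13 and 4367 (42.8%) higher in RN2, and in 9391 (91.9%) the libraries of the lines did not overlap. Passing the test is therefore the rule for any expressed gene, and a size was required beside it: 2600 symbols (25.5%) passed and differed at least 4-fold, 1370 (13.4%) higher in MOLM-13 and 1230 (12%) higher in RN2. For scale, RN2c against RN2 gave 54 such symbols of 9493 (0.569%). Without the size, 3193 of the 9493 (33.6%) passed the test there, so a pass alone also separates these samples of the mouse leukemia. With RN2c in place of RN2, 1268 of the 1370 and 1129 of the 1230 kept the same 4-fold call and none took the opposite one. The median log2 difference over all tested symbols was -0.04.

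**Figure D1:**
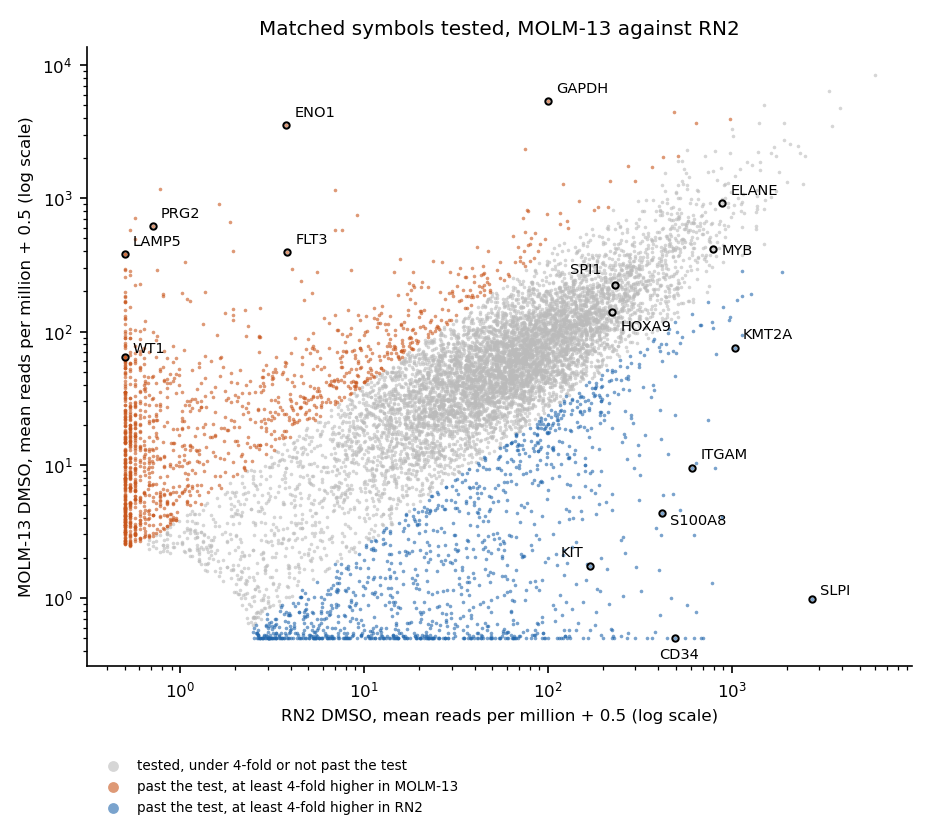
Mean level of each tested symbol in RN2 DMSO (horizontal) and MOLM-13 DMSO (vertical), in RPM + 0.5 on log axes. Orange and blue points passed the test and differed at least 4-fold; FLT3, LAMP5 and PRG2 lie far to the MOLM-13 side and CD34, KIT and SLPI far to the RN2 side, while SPI1, MYB and ELANE lie near the diagonal.

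Some of the widest ratios sit on genes that every cell uses, so a value near 0 in one table does not by itself mean a silent gene. The glycolytic enzyme ENO1 was at 3458 and 3649 RPM in MOLM-13 and 3.29 and 3.3 RPM in RN2, and GAPDH was at 5237 and 5511 against 97.7 and 102 RPM. Of the 50-base windows in the longest mouse transcript, 72.2% for Eno1 and 27.2% for Gapdh recur in transcripts of other annotated mouse genes (9 and 213 genes), and reads from such stretches are uncertain. On the human side, genes that flank the major histocompatibility genes were nearly empty. In the H2 region (GRCm38 chr17:33874659-37583554) lie the mouse genes of 62 symbols at 10 RPM or more in either line. Of these, 49 (79.0%) were under 1 RPM in MOLM-13, against 318 of 8825 (3.60%) elsewhere. None of the 62 was under 1 RPM in RN2, against 411 of 8825 (4.66%) elsewhere. A symbol under 1 RPM in 1 line entered these sets only through the other line, so the 49 could not be low in RN2. The H2 region supplied 48 of the 341 symbols found in RN2 alone. The translation factor gene EIF3C, whose human form has a near-identical neighbour, also had 0 reads in both MOLM-13 libraries and 675 and 687 RPM in RN2. Whether lost reads set these values was not tested.

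Most genes of the MLL-fusion program were read in both lines, and most differed in level. Of 33 matched genes in a list of MLL-fusion targets 20 were shared (all matched symbols, 44.3%). Of the 31 tested 17 passed higher in MOLM-13 and 11 higher in RN2 (all tested symbols, 40.9% and 42.8%). The median log2 difference over the 31 was 0.34 (all tested symbols, -0.04). HOXA9, the homeobox factor most closely tied to these leukemias, stood at 129 and 149 RPM in MOLM-13 and 226 and 219 RPM in RN2, which is the 88.9 and 91.1 percentile of matched symbols in MOLM-13 and the 94.2 and 94 in RN2. The RN2 libraries were both above those of MOLM-13, 1.6-fold on average (log2 difference -0.68 ± 0.09, limma adjusted p = 0.00033). Its cofactor MEIS1 went the other way, 70.5 and 77 RPM in MOLM-13 and 40.5 and 42 RPM in RN2, without overlap (log2 difference 0.83 ± 0.09). HOXA10 overlapped between the lines at 54.1 and 66 and 57 and 52.7 RPM. The partner homeobox gene PBX3 was at 154 and 139 RPM in MOLM-13 and 106 and 117 RPM in RN2.

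Anterior and central HOXA genes were on in both lines, whereas the posterior end of the cluster differed. HOXA3 (11.5 and 13.5 against 9.88 and 9.68 RPM), HOXA5 (14.1 and 14.5 against 18.2 and 15.9) and HOXA7 (22.9 and 28.5 against 32.2 and 37.1) differed by less than 2-fold. HOXA11 was at 30.1 and 43.3 RPM in MOLM-13 and at 0.143 and 0.137 RPM, or 2 reads, in each RN2 library, a 261-fold difference whose lower value rests on very few reads. HOXA13 was at 4.28 and 4.38 RPM in MOLM-13 and had no read in RN2, so it was at least 20.6-fold higher. Outside the HOXA cluster, 24 of 31 matched homeobox genes of other families were under 1 RPM in all 4 libraries (all matched symbols, 31.6%).

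Regulators of growth and survival among the targets were also shared. MYB, a transcription factor needed by these leukemias, was at 416 and 416 RPM in MOLM-13 and 863 and 727 RPM in RN2. CDK6, a cell cycle kinase, stood at 706 and 511 and 1138 and 1141 RPM. Both were higher in RN2 with no overlap, by 1.91-fold and 1.87-fold. MEF2C, a transcription factor that salt-inducible kinases keep active in such cells, was similar in the lines: 412 and 389 RPM in MOLM-13 and 450.0 and 498 RPM in RN2 (log2 difference -0.24 ± 0.08, limma adjusted p = 0.024). The MEF2C difference was 0.037 in the other direction when RN2c took the place of RN2. BCL2, an inhibitor of apoptosis, was at 155 and 139.8 and 123 and 122 RPM, and this difference was -0.020 with RN2c. Calls for CDK6, MEF2C and BCL2 were lost when either RN2 library was left out (limma adjusted p of 0.063 and 0.06 for CDK6), and that for MEF2C also without either MOLM-13 library (limma adjusted p of 0.08 and 0.147). The repressor ZEB2 did not pass the test (306 and 283 against 325 and 328 RPM).

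Part of the target list differed strongly between the lines, more often toward MOLM-13. By level, 2 members were found in MOLM-13 alone and 1 in RN2 alone. Of the 31 tested, 9 passed the test at least 4-fold higher in MOLM-13 and 3 at least 4-fold higher in RN2, together 38.7% against 25.5% of all tested symbols. LAMP5, a membrane protein much used as a marker of MLL-rearranged leukemia, was at 329 and 435 RPM in MOLM-13 and had no read in RN2, at least 1816-fold higher. The chromatin organizer SATB1 stood at 412 and 388 RPM in MOLM-13 against 1.22 and 1.65 RPM, 279-fold apart. The mRNA-binding proteins of the IGF2BP family split between the lines. IGF2BP2 was 9.85-fold higher in MOLM-13 (119.6 and 110.4 against 11.7 and 11.7 RPM) and IGF2BP3 was 9.53-fold higher in RN2 (21.1 and 21.2 against 201 and 203 RPM).

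**Figure D2:**
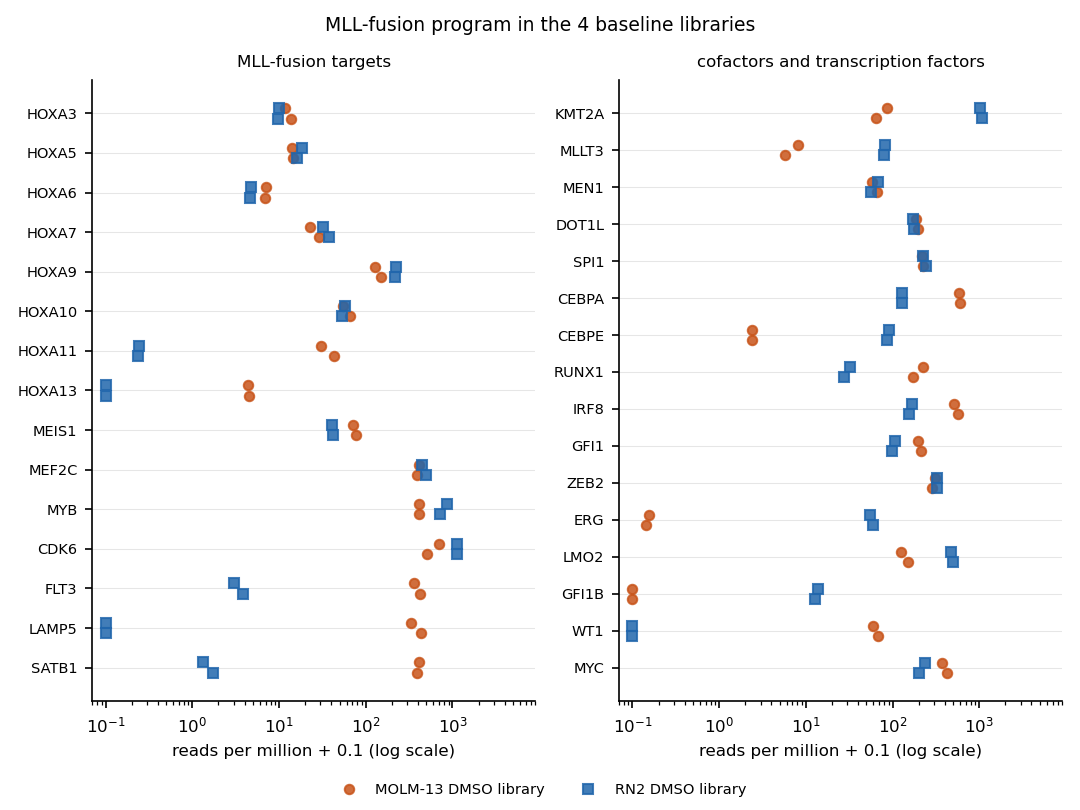
Level of MLL-fusion targets (left) and of cofactors and transcription factors (right) in each library, in RPM + 0.1 on a log axis, with 1 point per library (orange circles MOLM-13 DMSO, blue squares RN2 DMSO). HOXA3 to HOXA10, MEIS1, MEF2C, DOT1L, MEN1 and SPI1 of the lines lie close together, whereas LAMP5, SATB1, FLT3, HOXA11, WT1, ERG and KMT2A lie far apart.

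The proteins that work with the fusion were expressed in both lines. Of 29 matched cofactor genes 24 were shared (all matched symbols, 44.3%). At least 4-fold apart, 3 passed the test higher in MOLM-13 and 4 higher in RN2, together 24.1% and so near the 25.5% of all tested symbols. MEN1, the scaffold that tethers MLL to chromatin, was at 57.3 and 65.9 RPM in MOLM-13 and 67.5 and 55.8 RPM in RN2. DOT1L, the histone H3 lysine methyltransferase recruited by the fusion, was at 187 and 196 and 171 and 176 RPM. Neither passed the test, and the libraries of MEN1 interleaved. The Polycomb subunits EZH2 (109 and 101 against 199 and 186 RPM) and SUZ12 (152 and 124 against 379 and 372 RPM) were moderately higher in RN2. AFF3, of the family of elongation scaffolds, was at 66.9 and 71.5 RPM in MOLM-13 and at most 0.286 RPM in RN2.

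The genes joined in the fusion were both higher in RN2. KMT2A was at 87 and 63.6 RPM in MOLM-13 and 1013 and 1067 RPM in RN2, 13.8-fold higher (log2 difference -3.80 ± 0.14, limma adjusted p = 6.8e-07). MLLT3 was at 8.07 and 5.62 RPM in MOLM-13 and 82.8 and 80.1 RPM in RN2, 11.9-fold higher. NRAS, the other oncogene of RN2, was at 135 and 109.9 RPM in MOLM-13 and 887 and 1054 RPM in RN2, 7.92-fold higher. RN2c gave similar values: 1171 and 1108, 97.6 and 95.6 and 887 and 853 RPM. A gene-level table does not separate an introduced oncogene from the gene of the cell, and what share of these reads came from either was not tested.

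Master regulators of myeloid identity were on in both lines. SPI1 (PU.1), which sets the myeloid fate, was at 221 and 226 RPM in MOLM-13 and 226 and 240.2 RPM in RN2 and did not pass the test (log2 difference -0.06 ± 0.07). Of 47 matched myeloid transcription factors 27 were shared (all matched symbols, 44.3%). Of the 41 tested 16 passed in each direction, near the 40.9% and 42.8% of all tested symbols, and the median log2 difference was -0.11. CEBPA, which drives granulocyte commitment, was 4.64-fold higher in MOLM-13 (588 and 602 against 130.0 and 127 RPM), and IRF8, which favours monocytes and dendritic cells, was 3.35-fold higher (514 and 562 against 167 and 155 RPM). RUNX1 followed the same pattern (225 and 174 against 32.1 and 27.5 RPM). The nuclear receptors of myeloid maturation were higher in MOLM-13 as well, VDR at 68.4 and 58.2 against 5.73 and 8.04 RPM and RARA at 59.1 and 64.3 against 10.8 and 9.89 RPM. GFI1, a repressor of neutrophil precursors, was about 2-fold apart at 197 and 214 and 107 and 99 RPM.

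RN2 held a set of transcription factors that were barely read in MOLM-13. CEBPE, the factor of late granulocyte maturation, was at 2.28 and 2.3 RPM in MOLM-13 and 91.9 and 86 RPM in RN2, 38.9-fold higher. ERG, an ETS factor of stem cells, was at 0.0542 and 0.0442 RPM in MOLM-13, which is 1 read in each library, and at 54.2 and 59.1 RPM in RN2. LMO2, a bridging protein of stem cell complexes, was shared but 3.56-fold higher in RN2 (124 and 149 against 474 and 499 RPM). The erythroid and megakaryocytic factors GFI1B and TAL1 had no read in MOLM-13 and stood at 13.8 and 12.7 RPM and 8.81 and 12.1 RPM in RN2, at least 89.9-fold and 70.8-fold higher. The libraries of the lines did not overlap for any of these, which also held for 91.9% of all tested symbols.

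The granule gene lists differed by stage: members of the early list were mostly shared and those of the late list mostly were not (all matched symbols, 44.3% shared). The late list is broad and also holds neutrophil genes that are not granule proteins, such as the receptors CXCR2 and CSF3R. Of 12 matched primary granule genes 10 were shared, with 5 higher in each line among the 10 that passed and a median log2 difference of -0.10. Shared did not mean equal in level. Of the 12 tested, 3 were at least 4-fold higher in MOLM-13 and 3 in RN2, together 50% against 25.5% of all tested symbols. Of 28 matched members of the secondary and tertiary granule list only 4 were shared: ALOX5AP, CSF3R, ANXA1 and S100A9. The last was still 39-fold higher in RN2. Of the 22 tested, 17 passed higher in RN2 (14 of them at least 4-fold) against 4 higher in MOLM-13. Their median log2 difference was -3.71 (all tested symbols, 42.8% higher in RN2 and 40.9% higher in MOLM-13). Promoters of both kinds are shown because most early genes are shared and Ltf is a late gene read in RN2 alone. Each is the 250 bases before the RefSeq start in GRCm38.p6, plus strand, 5′ to 3′, and capitals mark GAGGAAG, a core that SPI1 can bind, or TTGCNNAA, a core that CEBP factors can bind, searched on both strands.
Elane, chr10:79886062-79886311: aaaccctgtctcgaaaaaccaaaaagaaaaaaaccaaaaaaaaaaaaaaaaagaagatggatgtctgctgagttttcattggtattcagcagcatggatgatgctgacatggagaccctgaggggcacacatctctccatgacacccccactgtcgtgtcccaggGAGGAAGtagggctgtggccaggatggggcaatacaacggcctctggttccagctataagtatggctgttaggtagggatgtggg
Mpo, chr11:87793534-87793783: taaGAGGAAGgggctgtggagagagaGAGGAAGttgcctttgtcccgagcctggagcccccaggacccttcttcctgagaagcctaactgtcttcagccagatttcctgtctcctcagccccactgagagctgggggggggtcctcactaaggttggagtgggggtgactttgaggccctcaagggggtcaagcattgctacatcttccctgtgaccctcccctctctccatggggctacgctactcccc
Ltf, chr9:111019042-111019291: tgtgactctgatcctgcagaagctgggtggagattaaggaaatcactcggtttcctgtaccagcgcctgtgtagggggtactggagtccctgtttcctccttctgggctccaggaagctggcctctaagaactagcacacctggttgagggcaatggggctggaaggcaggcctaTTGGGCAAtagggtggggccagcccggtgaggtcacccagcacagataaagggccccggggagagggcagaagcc
The upstream windows of Elane and Mpo hold GAGGAAG 1 and 2 times and that of Ltf holds TTGCNNAA 1 time. GAGGAAG occurs in 6 of 11 primary and 7 of 23 secondary and tertiary granule promoters, and in 10.6% of 32851 mouse windows of this length. TTGCNNAA occurs in 0 of 11 and 7 of 23, and in 9.56% of all windows. These are matches of letters only.

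The main primary granule enzymes were shared. ELANE, neutrophil elastase, was at 863 and 970.2 RPM in MOLM-13 and 872 and 909 RPM in RN2 and did not pass the test (log2 difference 0.04 ± 0.08), although RN2c was higher, at 1313 and 1431 RPM. MPO, myeloperoxidase, was at 181 and 182 RPM in MOLM-13 and 467 and 415 RPM in RN2, 2.43-fold higher in RN2. The proteases of this granule did not move together. PRTN3, proteinase 3, was 3.33-fold higher in MOLM-13 (3237 and 3417 against 1001 and 997 RPM), whereas CTSG, cathepsin G, was 6.7-fold higher in RN2 (249 and 311 against 1921 and 1837 RPM). PRSS57, a further serine protease, stood at 518 and 633 RPM in MOLM-13 and 6.95 and 5.91 RPM in RN2. Another 5 symbols of the list had no match by name and were not counted. Among them AZU1, a human granule protein with no mouse row of that name, was at 1089 and 1166 RPM in MOLM-13. RNASE2 was at 291 and 357 RPM there and RNASE3 at 26.2 and 33.1 RPM. SERPINB1 was at 149 and 146 RPM in MOLM-13, and mouse Serpinb1a was at 1105 and 1086 RPM in RN2.

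Of the late granule list, 14 members were at least 4-fold higher in RN2 and 4 at least 4-fold higher in MOLM-13 (all tested symbols, 12% and 13.4%). A further 7 symbols of the list had no match by name and were not counted. Among them CHI3L1 was at 163 and 139 RPM in MOLM-13. In RN2, Chil3 was at 6.3 and 5.15 RPM and Ngp at 48.4 and 54.2 RPM. S100A8 and S100A9, the calcium-binding pair that fills the neutrophil cytoplasm, were at 433 and 402 RPM and 457 and 442 RPM in RN2, against 4.44 and 3.32 RPM and 12.9 and 10.2 RPM in MOLM-13. Lactoferrin, LTF, had no read in MOLM-13 and 10.5 and 11.5 RPM in RN2, lipocalin LCN2 had none and 15.4 and 14.4 RPM, and OLFM4 had none and 48.6 and 53.4 RPM. HP, haptoglobin, was 137-fold higher in RN2 (3.2 and 2.48 against 379.8 and 395 RPM) and CYBB, the catalytic subunit of the phagocyte oxidase, 28.8-fold higher (6.94 and 6.19 against 194 and 184 RPM). Outside the late granule list, SLPI, the inhibitor of elastase, was at 0.433 and 0.531 RPM in MOLM-13 and 2705 and 2758 RPM in RN2 (log2 difference -11.44). The 4 granule list members at least 4-fold higher in MOLM-13 were LRG1 (162 and 188 against 0.501 and 0.687 RPM), the leukolysin MMP25 (7.53 and 6.77 RPM against 0), the chemokine receptor CXCR2 (33.2 and 30.5 against 4.51 and 6.25 RPM) and CSF3R.

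**Figure D3:**
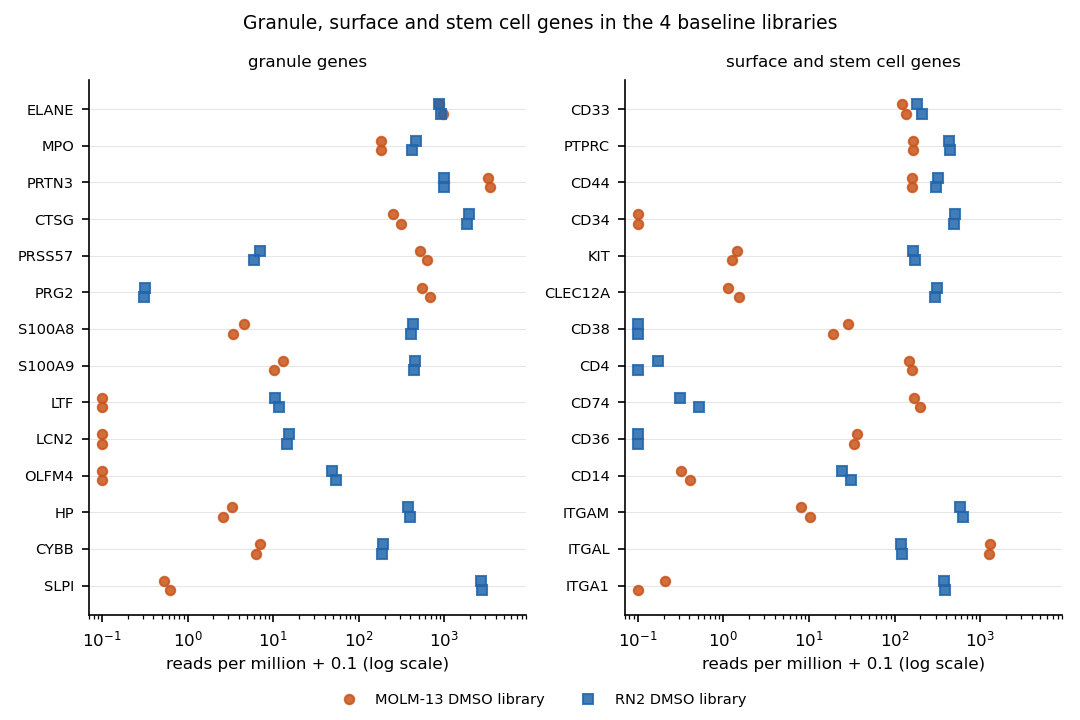
Granule genes (left) and surface and stem cell genes (right) in each library, in RPM + 0.1 on a log axis (orange circles MOLM-13 DMSO, blue squares RN2 DMSO). ELANE coincides between the lines, S100A8, LTF, LCN2 and OLFM4 of the late granule list lie on the RN2 side, and CD34 and KIT are at or near 0 in MOLM-13 and above 150 RPM in RN2.

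Tested stem and progenitor genes were more often higher in RN2. Of 34 matched members 18 were tested, and 13 passed higher in RN2 (8 at least 4-fold) and 5 higher in MOLM-13 (3 at least 4-fold). The median log2 difference was -1.56. Over all tested symbols 42.8% passed higher in RN2 (12% at least 4-fold) and 40.9% higher in MOLM-13 (13.4% at least 4-fold). In either direction 61.1% of the 18 were at least 4-fold apart, against 25.5% of all tested symbols. CD34, the sialomucin of blood progenitors, had no read in either MOLM-13 library and 501 and 488 RPM in RN2, at least 3348-fold higher (limma adjusted p = 3.4e-08). KIT, the stem cell factor receptor, was at 1.35 and 1.15 RPM in MOLM-13 and 163 and 173 RPM in RN2, 134-fold higher. In RN2c they stood at 667 and 715 and 149 and 179 RPM. ADGRG1, an adhesion receptor used to mark leukemia stem cells, was at most 0.0885 RPM in MOLM-13 and 44 and 53.7 RPM in RN2. GATA2, a stem cell factor, was shared at 40.8 and 47.1 and 63.2 and 62.2 RPM. On the human side CD38 (28.2 and 19.1 RPM) and BCL11A (25.7 and 18.8 RPM) were read, with 0 to 1 read in RN2.

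Surface antigens used to recognise myeloid leukemia were shared in part. The pan-leukocyte phosphatase PTPRC (CD45) was at 164 and 165 RPM in MOLM-13 and 435 and 446 RPM in RN2, the sialic acid receptor CD33 at 121 and 136 and 181 and 207 RPM, and the hyaluronan receptor CD44 at 157 and 158 and 318 and 304 RPM. All of them were shared and higher in RN2 by less than 3-fold. Of 25 matched antigens 5 of the 23 tested were at least 4-fold higher in each line, against 13.4% of all tested symbols in MOLM-13 and 12% in RN2. The costimulatory ligand CD70 (42.5 and 52.4 RPM) and the fatty acid transporter CD36 (36.3 and 33.7 RPM) had no read in RN2. CLEC12A, an inhibitory lectin widely used as a leukemia antigen, was at 1.03 and 1.42 RPM in MOLM-13 and 309 and 295 RPM in RN2. CD47, the signal that blocks engulfment, was 6.18-fold higher in RN2 (107.6 and 92.2 against 589 and 645 RPM).

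Monocyte and macrophage genes differed in both directions. Among 39 matched, 27 were tested, 7 passed at least 4-fold higher in MOLM-13 and 9 at least 4-fold higher in RN2, against 13.4% and 12% of all tested symbols. CSF1R, the macrophage growth factor receptor, was at 27.6 and 28.9 RPM in MOLM-13 and 41.3 and 44.5 RPM in RN2, and CCR2, which draws monocytes out of marrow, was at 85.6 and 83.4 and 130.3 and 124 RPM. CD14, the endotoxin coreceptor of mature monocytes, was at 0.217 and 0.31 RPM in MOLM-13 and 24.4 and 30.6 RPM in RN2, and ADGRE1, the F4/80 antigen of mouse macrophages, was at 0.759 and 0.885 and 72.3 and 86 RPM. MS4A7 (73.4 and 90.8 RPM) was found in MOLM-13 with no read in RN2. CX3CR1, the fractalkine receptor, was low to moderate in both at 4.28 and 6.72 and 22.8 and 17.9 RPM. In this list 9 symbols had no match by name and were not counted. Lysozyme, 1 gene in human and 2 in mouse, was among them: LYZ was at 1906 and 1717 RPM in MOLM-13 and Lyz2 at 640.4 and 707 RPM in RN2. Mouse Ly6c2 was at 1235 and 1301 RPM in RN2. FCGR1A was at 14.1 and 16.5 RPM in MOLM-13 and mouse Fcgr1 at 0.143 and 0.137 RPM in RN2.

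Of a list of dendritic cell genes 18 were matched and only 8 were tested, of which 6 passed at least 4-fold higher in MOLM-13 and 2 in RN2 (all tested symbols, 13.4% and 12%), and the summed level of the list was 695 and 780 RPM against 177 and 192 RPM. The list includes FLT3, which supplied most of the human sum. CD74, the invariant chain of class II molecules, was at 168 and 199 RPM in MOLM-13 and 0.215 and 0.412 RPM in RN2, and the costimulatory marker CD83 was at 29.7 and 33.7 RPM with no read in RN2. The plasmacytoid factor TCF4 went the other way, 28.7-fold higher in RN2 (6.45 and 5.44 against 166 and 176 RPM).

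Markers of other cell types were mostly silent. Of 31 matched T and NK cell genes 24 were under 1 RPM in all 4 libraries, of 21 B cell genes 17, and of 25 non-hematopoietic genes 18. Among all matched symbols this share was 31.6%. The summed level of the B list was 14.7 to 17.8 RPM in MOLM-13 and 19.8 to 21.6 RPM in RN2, and of the non-hematopoietic list 20.3 to 22.6 and 42.3 to 51.3 RPM. The T cell list gave 2 exceptions of high level. CD4, which human monocytes also carry, was at 147 and 160.0 RPM in MOLM-13 and at most 1 read in RN2, while the costimulatory receptor CD28 was at 231 and 222 RPM in RN2 and at most 1 read in MOLM-13. CD28 was 211 and 223 RPM in RN2c.

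Within the erythroid, megakaryocytic, mast cell, basophil and eosinophil list, each line had its own members. PRG2, the major basic protein of eosinophil granules, was at 546 and 687 RPM in MOLM-13 and 0.215 and 0.206 RPM, or 3 reads, in RN2, and EPX, eosinophil peroxidase, was at 10.2 and 17.6 RPM against at most 1 read. In RN2 the histamine-forming enzyme HDC was at 107 and 111 RPM (0.163 and 0.177 RPM in MOLM-13) and the mast cell protease CPA3 at 14.2 and 19.1 RPM with no read in MOLM-13. NFE2, a megakaryocytic and erythroid factor, was 5.11-fold higher in RN2 (41.6 and 44.4 against 228 and 211 RPM). Of the 16 members tested, 4 passed at least 4-fold higher in MOLM-13 and 7 in RN2, against 13.4% and 12% of all tested symbols.

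**Figure D4:**
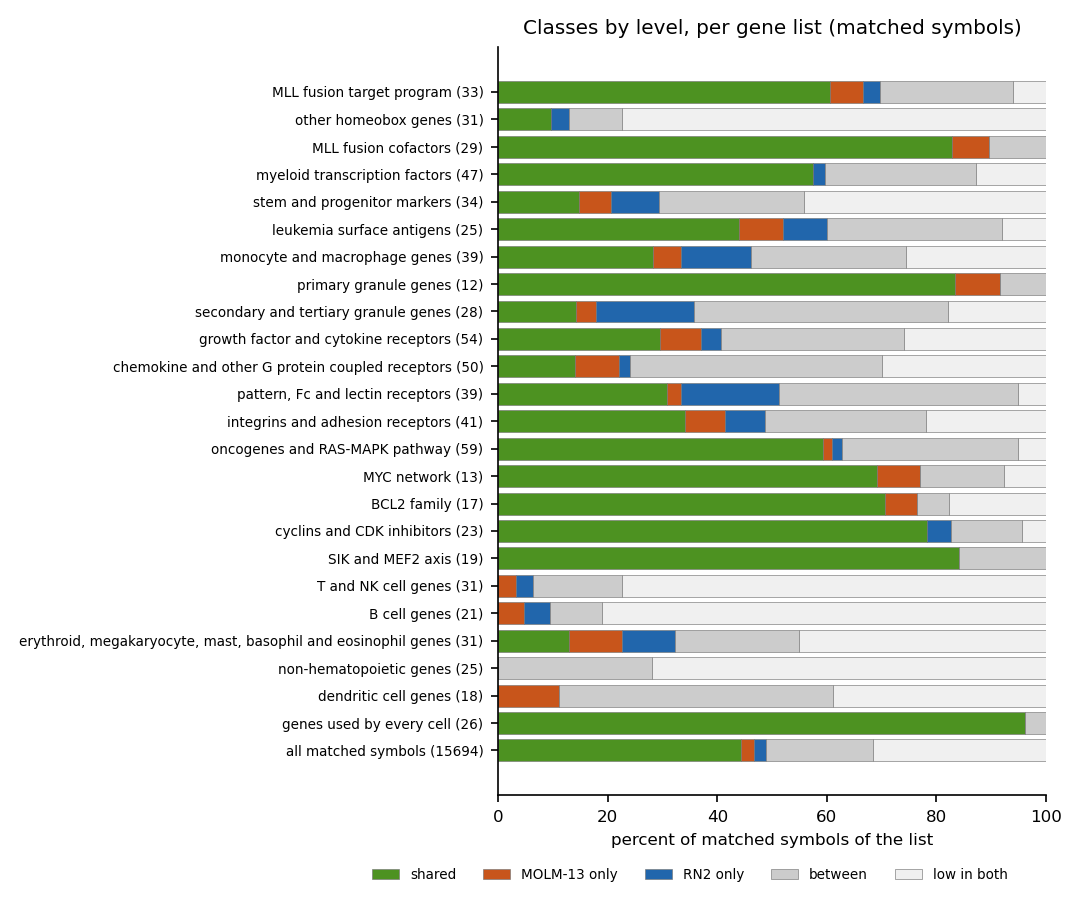
Share of each gene list's matched symbols (number in brackets) by class of level; bars add to 100 percent and the last bar gives all matched symbols. Primary granule genes, fusion cofactors, the SIK and MEF2 axis and genes used by every cell are mostly shared, few late granule genes are shared, and T, B and non-hematopoietic genes are mostly low in both.

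Growth factor receptors differed in both directions. Of 54 matched receptors 37 were tested, and 12 passed at least 4-fold higher in MOLM-13 and 8 at least 4-fold higher in RN2, against 13.4% and 12% of all tested symbols. FLT3, the receptor tyrosine kinase that is mutated in MOLM-13, was at 362 and 424 RPM there and 2.94 and 3.71 RPM in RN2, 118-fold higher (log2 difference 6.69 ± 0.14, limma adjusted p = 7.5e-08). KIT, of the same receptor family, had the opposite pattern, as given above. CSF3R, the granulocyte growth factor receptor, was 5.16-fold higher in MOLM-13 (164 and 172 against 30.4 and 34.5 RPM). CSF2RB, the common beta chain for interleukin 3 and granulocyte-macrophage growth factor, was 12.2-fold higher in RN2 (23 and 23.2 against 279 and 286 RPM).

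The insulin-like growth factor receptors were split between the lines. IGF1R, the signalling receptor, was at 5.58 and 5.48 RPM in MOLM-13 and 465 and 495 RPM in RN2, 86.8-fold higher. IGF2R, which clears the ligand to lysosomes, was at 523 and 465 RPM in MOLM-13 and at 0 to 2 reads in RN2. IL13RA1 was 35.2-fold higher in MOLM-13 (37.7 and 31.5 against 1.07 and 0.893 RPM). Other receptors found on the human side were IL27RA (32.8 and 37 RPM) and EPOR (19.3 and 22.9 RPM). On the mouse side were MET (20.2 and 21.2 RPM) and IL18RAP (65.6 and 64 RPM), each with at most 1 read in a MOLM-13 library. The interferon receptor chains IFNAR1 (72.6 and 66.8 against 109 and 104 RPM) and IFNGR2 (53.7 and 56.3 against 70.5 and 61.5 RPM) were shared.

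Chemokine and other G protein coupled receptors differed in both directions. Of 32 tested, 16 passed higher in MOLM-13 and 13 higher in RN2, and 13 and 5 of these were at least 4-fold apart, against 13.4% and 12% of all tested symbols (median log2 difference 0.45, and 0.95 in the inhibitor-treated libraries of both lines). CXCR4, the homing receptor for marrow, was shared at 91.3 and 99.4 and 180.0 and 174 RPM. The nucleotide receptor P2RY2 was 10.6-fold higher in MOLM-13 (466 and 401 against 40.8 and 40.9 RPM), and P2RY6 stood at 52.4 and 48.6 against 0.215 and 0.343 RPM. Of 36 tested pattern, Fc and lectin receptors, 21 passed higher in RN2 (15 at least 4-fold) and 11 higher in MOLM-13 (3 at least 4-fold), with a median of -1.20. Over all tested symbols 42.8% passed higher in RN2 (12% at least 4-fold) and 40.9% higher in MOLM-13 (13.4% at least 4-fold). Another 17 symbols of the list had no match by name and were not counted. Among them SIRPB1 was at 54.2 and 57.1 RPM in MOLM-13 and Fcgr3 at 199 and 210 RPM in RN2. Signalling chains of Fc and lectin receptors were higher in RN2: FCER1G was at 0.921 and 1.37 RPM in MOLM-13 and 210.2 and 211 RPM in RN2, and TYROBP at 57.9 and 75.5 and 334 and 332 RPM. AIM2, a sensor of cytosolic DNA, and the lectin CLEC4E had no read in MOLM-13 and 94.3 and 98.1 and 59.8 and 66.5 RPM in RN2. Among Toll-like receptors TLR4 and TLR2 were less than 2-fold apart, with TLR4 at 23.5 and 21.9 and 28.9 and 31.5 RPM and TLR2 at 27.8 and 29 and 15.8 and 20.6 RPM.

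**Figure D5:**
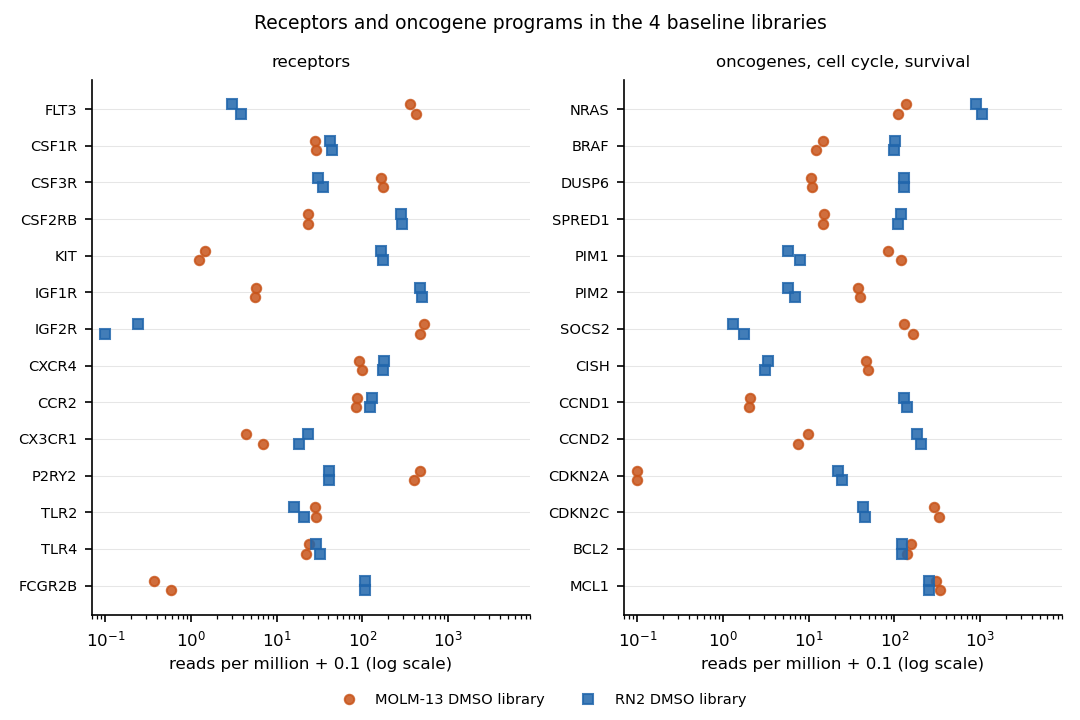
Receptors (left) and oncogenes, cell cycle and survival genes (right) in each library, in RPM + 0.1 on a log axis (orange circles MOLM-13 DMSO, blue squares RN2 DMSO). FLT3, IGF2R, SOCS2 and PIM1 lie on the MOLM-13 side, KIT, IGF1R, NRAS, DUSP6 and CCND1 on the RN2 side, and CSF1R, CCR2, BCL2 and MCL1 lie close together.

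Adhesion receptors differed in both directions. ITGAL, the alpha chain of LFA-1, was 10.5-fold higher in MOLM-13 (1288 and 1255 against 119 and 122 RPM), and ITGAM, the alpha chain of Mac-1 (CD11b), was 67.5-fold higher in RN2 (7.91 and 10.1 against 587 and 627 RPM). Their common partner ITGB2 was shared at 343 and 370.5 and 560.0 and 617 RPM. In the longest Itgam transcript 72.4% of the 50-base windows recur in 1 other annotated mouse gene, so its reads are uncertain too. RN2 also held the collagen receptor chain ITGA1 (376 and 388 RPM, at most 2 reads in MOLM-13), the laminin receptor chain ITGA6 (1.35 and 1.99 against 253 and 275 RPM) and ITGB3 (80.1 and 90.2 RPM, 1 to 2 reads in MOLM-13). Of 31 adhesion genes tested, 8 passed at least 4-fold higher in MOLM-13 and 11 in RN2, against 13.4% and 12% of all tested symbols.

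Signalling genes of the oncogene list also differed by line. SOCS2, a feedback inhibitor of cytokine signalling, was at 130.3 and 162 RPM in MOLM-13 and 1.22 and 1.65 RPM in RN2, CISH, of the same family, at 45.9 and 49 and 3.22 and 2.95 RPM, and the survival kinase PIM1 at 83.7 and 119.9 and 5.66 and 7.76 RPM. Each passed the test at least 4-fold apart (log2 differences 6.25, 3.74 and 3.82). The cytokine signalling factors STAT5A and STAT5B were shared at 63.8 and 61.6 and 74.8 and 74.7 RPM in MOLM-13 and 50.6 and 49.2 and 98 and 105 RPM in RN2. WT1, a zinc finger gene overexpressed in many acute leukemias, was at 59.8 and 67.1 RPM in MOLM-13 with no read in RN2, at least 301-fold higher.

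Several genes of the RAS and ERK pathway were higher in RN2, and others were not. DUSP6, a phosphatase that ERK induces and that restrains it, was at 10.4 and 10.9 RPM in MOLM-13 and 130.4 and 127 RPM in RN2, 12.1-fold higher. SPRED1, a RAS inhibitor, was 7.84-fold higher (14.8 and 14.4 against 118 and 111 RPM), and the kinase BRAF 7.49-fold higher (14.5 and 12.2 against 102 and 97.9 RPM). The kinase MAP2K2 (129.8 and 129 against 117 and 135 RPM) did not pass the test. FOS (28.6 and 34.5 against 17 and 17 RPM) and, at low level, SPRY4 (2.22 and 2.03 against 1.07 and 1.51 RPM), both responsive to this pathway, were instead higher in MOLM-13. EGR1, of the transcription factor list, was 7.75-fold higher in RN2 (2.65 and 2.74 against 20.1 and 21.7 RPM). Of the 56 tested genes of the oncogene list, 10 passed at least 4-fold higher in MOLM-13 and 9 in RN2, against 13.4% and 12% of all tested symbols.

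MYC and MAX were shared, and the D-type cyclins differed. MYC was at 376 and 429 RPM in MOLM-13 and 236 and 199.7 RPM in RN2, 1.85-fold higher in MOLM-13, and its dimer partner MAX at 60.0 and 65.5 and 91.9 and 82.4 RPM. Of these cyclins, which activate CDK4 and CDK6, CCND1 was at 1.95 and 1.9 RPM in MOLM-13 and 130.3 and 138 RPM in RN2, CCND2 at 9.64 and 7.47 and 185 and 205 RPM, and CCND3 at 332 and 379 and 159 and 157 RPM. CCND1 and CCND2 were thus 69.7-fold and 22.8-fold higher in RN2 and CCND3 was 2.25-fold higher in MOLM-13. The kinase inhibitor gene CDKN2A had no read in MOLM-13 and 22 and 24.5 RPM in RN2, while CDKN2C was 7.02-fold higher in MOLM-13 (290.1 and 326 against 42.5 and 45.3 RPM). MDM2, a target and inhibitor of p53, differed between the MOLM-13 libraries (288 and 119 RPM) and did not pass against RN2 (132 and 146 RPM); 7 symbols with a mean of at least 10 RPM differed over 2-fold between the MOLM-13 libraries.

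Survival genes were largely shared. Of 17 matched BCL2 family genes 12 were shared (all matched symbols, 44.3%). Of the 14 tested, 21.4% passed at least 4-fold apart, near the 25.5% of all tested symbols. MCL1 was at 308 and 339.5 RPM in MOLM-13 and 255 and 254 RPM in RN2, and the effector BAX at 133 and 141 and 135 and 141 RPM. The differences at least 4-fold were BIK (33.6 and 34.4 RPM, no read in RN2) and BMF (66.9 and 48.8 against 3.01 and 3.5 RPM) in MOLM-13, and PMAIP1 (20.2 and 21.1 against 128 and 161 RPM) in RN2, all of them proapoptotic.

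The kinase axis that the study addresses was present in both lines at baseline. Of 19 matched genes of the SIK and MEF2 axis 16 were shared (all matched symbols, 44.3%), and the median log2 difference was -0.30. SIK3, the salt-inducible kinase on which such leukemias depend, was at 52.6 and 48.3 RPM in MOLM-13 and 82.9 and 92 RPM in RN2, 1.73-fold higher in RN2 (log2 difference -0.79 ± 0.10, limma adjusted p = 0.00022). SIK2 did not pass the test (37.8 and 32.4 against 29.4 and 28.9 RPM), and SIK1 was low in both (10.4 and 10.7 against 6.09 and 6.8 RPM). The class IIa histone deacetylases that SIK phosphorylates to hold off from MEF2C were shared: HDAC4 at 39.6 and 41.3 and 58.6 and 59.9 RPM, HDAC5 at 60.4 and 63.5 and 87.7 and 95.7 RPM and HDAC7 at 41.6 and 37.5 and 30.4 and 33.5 RPM. STK11, the kinase that activates SIKs, was at 102 and 103 and 161 and 160.0 RPM, and MEF2D at 459 and 448 and 214 and 242 RPM. Calls at least 4-fold apart were CAB39L, a scaffold of STK11, toward RN2 (7.42 and 5.88 against 67.7 and 65 RPM) and MEF2B, at low level, toward MOLM-13 (3.36 and 2.7 RPM, no read in RN2).

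Beyond the lists, the 10 symbols with the largest ratio in each direction at 50 RPM or more in the higher line mixed lineage genes with genes of uncertain counting. Toward MOLM-13 they were LDHB, PPP1R27, CYP1B1, ENO1, IGF2R, PRG2, LAMP5, SDC2, TGOLN2 and CLEC11A. CYP1B1, a monooxygenase induced by the aryl hydrocarbon receptor, was at 633 and 529 RPM with at most 1 read in RN2, the heparan sulfate proteoglycan SDC2 at 288 and 298 RPM with none, and the stem cell growth factor CLEC11A at 815 and 994 against 1.22 and 1.03 RPM. The lactate dehydrogenase subunit LDHB was at 1157 and 1177 against 0.215 and 0.343 RPM, with 27.0% of the mouse windows shared with another gene. Toward RN2 they were SLPI, GDA, EIF3C, GNG12, HPGD, CD34, MTPN, PRRC2A, VARS and ITGA1. PRRC2A and VARS belong to the H2 region described above. The guanine deaminase GDA (697 and 702 RPM) and HPGD, which inactivates prostaglandins (576 and 533 RPM), had no read in MOLM-13.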

How the data were processed

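Poly(A) RNA libraries were prepared with a TruSeq kit, per the labels' protocols. The submitters' processing notes name HISAT2, featureCounts, DESeq2, hg19 and mm10 (no version or strand setting is given). The deposited values are a signal per gene, read counts that the authors divided by DESeq2 size factors, separately per table. Dividing each library by its smallest nonzero value gave whole reads for 100% of values (tolerance 0.001 read), and these were rescaled to RPM of all recovered reads. Lines were compared with limma 3.58.1 (empirical Bayes with a trend, two-sided) on log2(RPM + 0.5), 2 libraries against 2, for symbols with a mean of at least 1 RPM, with Benjamini-Hochberg adjustment at 0.05. Differences on this log2 scale understate changes of low genes because of the pseudocount. A bound ("at least") sets a line without reads to 3 reads per library, for counting error only.

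Named genes were the 10 largest ratios per direction, up to 6 per list and direction at least 4-fold apart, up to 4 shared per list, and a fixed set of regulators and receptors; other list members named were chosen after their values were seen. Members and lists were chosen with earlier results of these data known. Same-symbol genes of human and mouse were not checked for orthology. Alternatives were other pseudocounts, filters and scalings, limma without the trend, edgeR 4.0.16 and DESeq2 1.42.0 on recovered reads, inhibitor-treated libraries, RN2c for RN2, a replicate block, and each library left out; leaving out the H2 region was chosen after seeing the data. No sequence or coordinates of the human genome were used here.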

Additional observations from a re-analysis of the deposited data

How the results depend on the processing

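Counts of calls stayed within 1.5 times the reported ones in every alternative except a filter at a mean of 10 RPM, which left 752 symbols at least 4-fold higher in MOLM-13 and 782 in RN2 because fewer symbols were tested. Leaving out each library in turn gave 3593 to 3859 past the test higher in MOLM-13 and 3451 to 4309 higher in RN2, with 1257 to 1429 and 1147 to 1266 at least 4-fold apart; the lone library was assumed to vary like the others. With a replicate block the counts were 4271 and 4479, and 1370 and 1230 at least 4-fold apart. Libraries of the lines share only a replicate number (correlation of their deviations 0.0951), so the block is no pairing by design. Without the H2 region 1161 symbols were at least 4-fold higher in RN2 and 293 were found in RN2 alone.

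Of 237 named genes tested, 225 passed. Over 4246 pairs of a gene and an alternative, 4172 kept the call, 55 lost it, 13 gained one and 6 changed direction. The changes of direction were MEF2C with RN2c (0.037), ELANE under quantile normalization (-0.167) and with RN2c (-0.582), TNFRSF1A with RN2c (-0.027), BCL2 with RN2c (-0.020) and EEF2 under quantile normalization (-0.372). The 19 genes that lost a call at least once included CDK6, GATA2, MCL1, MEF2C and BCL2, mostly on leaving out a library of RN2; the cause was not tested. A scale per gene length was not run, since no human gene lengths were used here.

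Depth limits genes near 1 read: a count of 0 allows up to 0.133 to 0.163 RPM in a MOLM-13 library and 0.206 to 0.215 RPM in an RN2 library. Line, species, gene models and library preparation cannot be told apart.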

Other observations

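Secreted and matrix proteins were among the symbols found in 1 line outside the lists (chosen after their values were seen). In MOLM-13, GAS6, the ligand of the TYRO3, AXL and MERTK receptors, was at 274 and 294 RPM with 0.0716 and 0 RPM in RN2, the complement protease CFD at 293 and 373 against 0.501 and 0.618 RPM, the membrane metalloprotease MMP14 at 185 and 184 against 0 and 0 RPM and the chemokine CCL5 at 74.3 and 109 against 0.286 and 0.206 RPM. In RN2, SPP1, osteopontin, was at 238 and 301 RPM with 0 and 0 RPM in MOLM-13, coagulation factor F10 at 164 and 196 against 0.163 and 0.0885 RPM and the ectonucleotidase NT5E at 127 and 132 against 0 and 0.0442 RPM. Their values in RN2c were 646 and 661 RPM for SPP1, 241 and 204 RPM for F10 and 238 and 249.7 RPM for NT5E.

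RN2 library 1 held reads in 13824 of 20682 rows and library 2 in 13162, although library 1 was the shallower of the pair, 13961461 against 14560501 reads. The inhibitor-treated RN2 libraries with the same numbers had reads in 14578 and 13142 rows.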
